A study of Moricandia moricandioides and Moricandia arvensis and Moricandia suffruticosa with 11 samples.

Results

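Both C3–C4 intermediate species of *Moricandia*, *M. arvensis* line MOR1 and *M. suffruticosa*, were compared together with the C3 species *M. moricandioides* by RNA sequencing of mature leaves. The comparison takes all 11 plants of the series: plants 6, 8, 12 and 15 of *M. moricandioides*, plants 9, 12, 13 and 15 of *M. arvensis*, and plants 6, 7 and 8 of *M. suffruticosa*. All plants were grown in a climate chamber and harvested before flowering, early in the light period, and no plant was treated. Each species came from 1 seed source and only 1 C3 species was grown, so the photosynthesis type and the species cannot be told apart. The intermediate value used here is the mean of both species means, and a transcript counts as having moved in both when it passed an adjusted p of 0.01 from edgeR in that mean and in each intermediate separately, with the same sign. Both intermediates were set against the same 4 C3 plants, so the separate comparisons are not independent of each other.

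In a C3 leaf the oxygenation of ribulose bisphosphate by Rubisco makes phosphoglycolate, which photorespiration recycles through chloroplast, peroxisome and mitochondrion with a loss of CO2 and ammonium. C3–C4 intermediates confine the glycine decarboxylase step to the bundle sheath, so glycine moves inwards from the mesophyll, CO2 is released next to bundle sheath chloroplasts, and amino groups and organic acids have to travel back. Enzymes that carry amino groups and organic acids, and mitochondrial enzymes that reoxidize NADH, are therefore of interest in such leaves. The gene roles given below are those known in *Arabidopsis thaliana*, to whose coding sequences the reads were matched.

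Between 10987959 and 14865167 reads were counted per plant. The deposited table lists 33602 gene models, of which 18995 received any read in these leaves and 15570 were abundant enough to be tested. The other 14607 are listed at 0 in every library and may not have been in the reduced set of coding sequences that was mapped to. Among them are well known genes such as the alternative oxidase AOX1A and the P450 gene CYP79B2, and reads of a gene copy may have been counted under a close relative. Abundance is given as the counted reads of a transcript scaled to the same total in every library (rpm), and differences as log2 fold changes of the C3–C4 mean over C3 with their standard errors. The libraries carried the signs of a green leaf: light harvesting and photosystem transcripts summed to 169913 to 210641 rpm in the C3 plants, against 136611 to 196274 rpm in *M. arvensis*, while *M. suffruticosa* had 183841 to 222396 rpm. Of 7 tested vascular markers, 9 guard cell markers and 6 markers of dividing cells, 0 moved in both intermediates, and of 11 markers of epidermis and cuticle 1 did. Over all tested transcripts 11.5% moved in both, and counts of 0 or 1 in lists this short lie near that share. The guard cell markers summed to 231 to 505 rpm in the C3 plants, against 87.1 to 141 rpm in *M. arvensis*, with *M. suffruticosa* between them at 198 to 313 rpm, and the epidermal markers to 1031 to 1449, 677 to 915 and 1031 to 1155 rpm. Every *M. arvensis* plant was below every C3 plant in both sums. The guard cell sum follows 1 abundant member, GC1 (AT1G22690), at 176 to 450 rpm in C3, 19.7 to 41.1 rpm in *M. arvensis* plants and 107 to 232 rpm in those of *M. suffruticosa*, whereas 6 of the 9 log2 fold changes were above 0 (median 0.50). The vascular markers spanned 454 to 574, 353 to 615 and 370 to 691 rpm. Within them 3 of 4 tested xylem markers were lower in the C3–C4 mean, though 0 in both (median -1.33). Of 3 tested phloem markers 0 passed in the mean (median 0.27). In whole leaves, fewer cells of a type and less RNA per cell cannot be told apart.

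The C3–C4 mean was higher than C3 for 2277 transcripts (14.6% of those tested) and lower for 2350 (15.1%). Of these, 955 were higher in both species (6.13% of those tested) and 836 lower in both (5.37%), 1791 in all (11.5%). Counts for gene lists and groups below are to be read against these shares, and no list or group was tested as a set. A further 926 higher and 1073 lower transcripts passed in *M. arvensis* alone, and 319 and 317 in *M. suffruticosa* alone. For 43 higher and 94 lower transcripts of the mean the separate log2 fold changes even had opposite signs, so the mean of the intermediates by itself does not show a change common to them. The number that moved in both depended on single plants: without *M. suffruticosa* plant 6 it was 629 higher and 454 lower, with 1074 of the 1791 called again, and without *M. suffruticosa* plant 7 it was 635 and 441, with 1069 called again. *M. arvensis* plants 13 and 15 (r = 0.99 of log2 values) and *M. suffruticosa* plants 6 and 7 (r = 0.991) were more alike than other plants of a species (0.94 to 0.97), though beyond sampling noise, and with each of these pairs summed to 1 library 500 transcripts were higher and 372 lower in both. Of the 91 transcripts named below that moved in both, 62 were called in every fit that leaves out 1 plant, and the other 29 are pointed out with their values. Summing the close pairs ended the call of the same 29 and of 2 more, ELF4 and MIND1.

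Among the transcripts that moved in both, the median log2 fold change was 1.57 for the higher ones (1.63 for *M. arvensis*, 1.50 for *M. suffruticosa*) and -1.55 for the lower ones (-1.58 and -1.49), against 0.008 over all tested transcripts. At least a 4-fold difference was found for 347 higher and 289 lower transcripts, and at least a 16-fold difference for 94 and 87. In 912 of the 955 higher transcripts every intermediate plant lay above every C3 plant, an order seen in 12.4% of all tested transcripts. In 755 of the 836 lower ones every intermediate plant lay below every C3 plant, against 8.23% of all tested. For 277 of the 1791 the intermediates also differed from each other, a difference called for 19.3% of all tested transcripts. The higher transcripts had a median of 5.38 rpm in C3 and 18.1 rpm in the intermediates, and the lower ones a median of 24.1 and 8.58 rpm. Together the higher transcripts summed to 16311 rpm in the C3 species against 52467 rpm in *M. arvensis*, where *M. suffruticosa* had 46682 rpm, and the lower ones to 59970, 25939 and 26940 rpm.

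**Figure D1:**
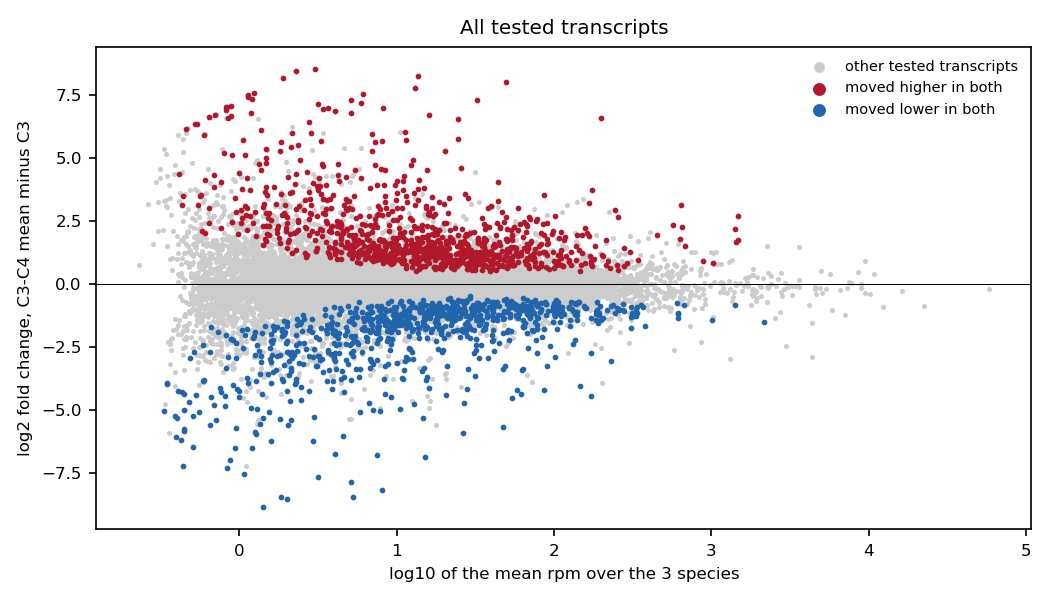
Log2 fold change of the C3–C4 mean over C3 (vertical axis) against the log10 of the mean rpm over the 3 species (horizontal axis) for all 15570 tested transcripts, with the 955 that moved higher in both intermediates in red and the 836 that moved lower in blue. Transcripts that moved in both are found at every level of abundance except among the 20 most abundant, and differences beyond 16-fold are mostly those of rare transcripts.

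Enzymes around phosphoenolpyruvate and oxaloacetate stood among the most abundant transcripts that rose in both intermediates. Phosphoenolpyruvate carboxykinase releases CO2 from oxaloacetate and serves some C4 plants as a decarboxylase. Its transcript PCK1 (AT4G37870) stood at 382, 252, 356 and 209 rpm in *M. moricandioides* plants 6, 8, 12 and 15, at 2168, 2607, 1002 and 1037 rpm in *M. arvensis* plants 9, 12, 13 and 15, and at 2599, 2530 and 2237 rpm in *M. suffruticosa* plants 6, 7 and 8. Values per plant are given in this order throughout. All intermediate plants were above all C3 plants, and within *M. arvensis* plants 9 and 12 were well above plants 13 and 15 (log2 fold change 2.71 ± 0.36, adjusted p = 0.00012). The rare copy PCK2 (AT5G65690) had 1 read over the C3 plants and 182 over the intermediates, or 114 times the C3 share of reads (95% exact interval 20.2 to 4530, which covers counting error only). PPCK1 (AT1G08650), the kinase that phosphorylates phosphoenolpyruvate carboxylase, went from 18.9, 14.4, 21.9 and 9.42 rpm to 33.5, 27.6, 61.3 and 62.1 rpm and to 37.9, 35.7 and 44.7 rpm. The groups did not overlap, although *M. arvensis* plant 12 lay near the highest C3 plant (1.29 ± 0.25, adjusted p = 0.0015). The malate dehydrogenase cMDH1 (AT1G04410) of the cytosol rose from 507, 589, 551 and 454 rpm to 1047, 741, 916 and 986 rpm and to 1164, 1186 and 1294 rpm. Here too no plants overlapped, and the *M. suffruticosa* plants were the highest (0.93 ± 0.17, adjusted p = 0.0011). The call of PPCK1 in both species was lost without *M. moricandioides* plant 6, 8 or 15 or any *M. suffruticosa* plant (1.09 to 1.35), and that of cMDH1 without any 1 plant other than *M. arvensis* plant 12 or *M. suffruticosa* plant 8 (0.81 to 0.97).

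Other members of the 28 tested C4 cycle candidates fell or did not pass in both. CA3 (AT1G23730), a carbonic anhydrase, fell from 257 to 302 rpm in the C3 plants to 142 to 212 rpm in the intermediates (-0.88 ± 0.15, adjusted p = 0.00067), and the plastid malate dehydrogenase pNAD-MDH (AT3G47520) from 33.4 to 49.9 rpm to 11.1 to 27.2 rpm (-1.32 ± 0.14, adjusted p = 2.8e-05). Both calls were lost without *M. suffruticosa* plant 6 or 7, and that of pNAD-MDH also without plant 8, at -0.86 to -0.85 and -1.36 to -1.29. In all, 4 candidates were higher in both and 2 lower. The median log2 fold change of the list was 0.28, against 0.01 over all tested transcripts. Pyruvate orthophosphate dikinase PPDK (AT4G15530), which regenerates phosphoenolpyruvate in C4 leaves, passed in the mean but not in each intermediate. It stood at 173, 102, 177 and 67.9 rpm in C3, at 1151, 539, 248 and 239 rpm in *M. arvensis*, and the *M. suffruticosa* plants had 454, 509 and 702 rpm (2.06 ± 0.53, adjusted p = 0.0076). The most abundant carboxylase transcript, PPC2 (AT2G42600), averaged 1232 rpm in C3 and 822 and 671 rpm in the intermediates and did not pass the test (-0.77 ± 0.27, adjusted p = 0.035).

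Several aspartate aminotransferases, which move amino groups between aspartate and 2-oxoglutarate, rose in both intermediates. Of 6 tested aminotransferase transcripts on the nitrogen list, 3 were higher in both and 0 lower, with a median log2 fold change of 1.23. ASP3 (AT5G11520) stood at 24, 22.8, 20.4 and 17.4 rpm in C3, at 132, 111, 120 and 127 rpm in *M. arvensis* and at 107, 116 and 112 rpm in *M. suffruticosa*. The spread within each species was small, and the lowest intermediate plant was far above the highest C3 plant (2.39 ± 0.15, adjusted p = 8.5e-07). ASP4 (AT1G62800) went from 8.48 to 13.4 rpm to 36.3 to 47.4 rpm in *M. arvensis*, with 52.8 to 86.2 rpm in *M. suffruticosa* (2.26 ± 0.21, adjusted p = 1e-05), and ASP2 (AT5G19550) from 25.6 to 34.6 rpm to 64.7 to 91.6 rpm over all intermediate plants (1.25 ± 0.19, adjusted p = 0.00029). ASP2 and ASP3 are each other's closest match in Arabidopsis, and their summed counts were also higher in both, at 51.7 rpm in C3 and 201 and 187 rpm in the intermediates (1.83 ± 0.16, adjusted p = 9.2e-06).

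Elsewhere in nitrogen metabolism an opposite pair was found. ASN3 (AT5G10240), an asparagine synthetase that loads amide nitrogen for transport, fell from 204, 228, 78.7 and 127 rpm to 35.4, 34.7, 45.2 and 45.8 rpm and to 29.2, 30.5 and 37.1 rpm. The C3 plants varied, but the lowest of them was still above every intermediate plant (-2.22 ± 0.22, adjusted p = 1.5e-05). ASN1 (AT3G47340), the isoform induced in darkened or starved leaves, was rare throughout and rose from 1.09 to 1.6 rpm to 3.73 to 10.7 rpm (2.03 ± 0.25, adjusted p = 6.7e-05). The plastid dicarboxylate transporter DIT2-2 (AT5G64280) fell from 167 to 210 rpm to 111 to 137 rpm (-0.70 ± 0.12, adjusted p = 0.00048), a call lost without *M. moricandioides* plant 6, 8 or 15, *M. arvensis* plant 12 or any *M. suffruticosa* plant (-0.73 to -0.68). ASN2, the closest match of both asparagine synthetases, and DIT2-1, that of DIT2-2, are listed at 0 reads in every library.

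Photorespiratory transcripts moved in both in about the share of all tested transcripts (11.5%). Of 17 tested, 0 were higher and 2 lower in both, with a median log2 fold change of -0.07. The 2 were PGLP1 (AT5G36700), the phosphatase that opens the pathway, which fell from 766 to 856 rpm to 475 to 582 rpm (-0.75 ± 0.15, adjusted p = 0.0015), and the minor serine hydroxymethyltransferase SHM2 (AT5G26780), which fell from 33.8 to 51.5 rpm to 14.9 to 23.5 rpm (-1.11 ± 0.16, adjusted p = 0.00016). The major form SHM1 (AT4G37930) had 3720 rpm in C3 against 6225 and 4999 rpm and did not pass (0.51 ± 0.20, adjusted p = 0.058), and neither did the sum of both forms (0.50, adjusted p = 0.061). The call of SHM2 was lost without any *M. suffruticosa* plant (-1.13 to -1.10), and that of PGLP1 without any *M. suffruticosa* plant, *M. moricandioides* plant 12 or 15 or *M. arvensis* plant 12, 13 or 15 (-0.77 to -0.71). Reads of the P-protein of glycine decarboxylase were counted under the gene model GLDP2 (AT2G26080), with 3613 rpm against 4022 and 3158 rpm (-0.11 ± 0.18, adjusted p = 0.66). GLDP1, its closest match, is listed at 0 in every library, so the reads counted under GLDP2 do not by themselves show which copy these plants carry. The paper assembled only GLDP1-like transcripts from these species and proposes that the GLDP2 copy was lost in their lineage.

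Among mitochondrial bypasses of the respiratory chain, transcripts of 2 alternative oxidases and of an uncoupling protein rose in both intermediates. Of 4 tested alternative oxidases 2 were higher and 0 lower in both, and their log2 fold changes ran from -1.39 to 1.50. Alternative oxidase passes electrons from ubiquinol straight to oxygen, and uncoupling protein dissipates the proton gradient and carries amino and organic acids. AOX1C (AT3G27620) stood at 42.9, 28.1, 42.2 and 23.1 rpm in C3, at 106, 97.5, 94.8 and 102 rpm in *M. arvensis* and at 109, 110 and 97.7 rpm in *M. suffruticosa*. The 7 intermediate plants lay close together above all C3 plants (1.50 ± 0.20, adjusted p = 0.0001). AOX1B (AT3G22360), its closest match, had nearly the same levels, 25.4 to 53.6 rpm in C3 and 89 to 111 rpm in the intermediates (1.24 ± 0.21, adjusted p = 0.00064), and reads may be shared between them. Summed, they rose from 73.9 to 194 and 213 rpm (1.37 ± 0.21, adjusted p = 0.00028). UCP1 (AT3G54110) went from 15.6, 20.1, 16.6 and 15.4 rpm to 45.6, 32.9, 31.9 and 37.8 rpm and to 61.5, 67.5 and 78.4 rpm. The species formed 3 separate steps, and the difference between the intermediates was also called (1.51 ± 0.19, adjusted p = 8.4e-05 for the C3–C4 mean and 0.007 between the intermediates). NDC1 (AT5G08740), a type II NAD(P)H dehydrogenase, fell from 86.9 to 125 rpm to 41.4 to 62.3 rpm (-1.11 ± 0.18, adjusted p = 0.00042), a call lost without *M. moricandioides* plant 6, 12 or 15, *M. arvensis* plant 12 or 13 or any *M. suffruticosa* plant (-1.15 to -0.99). Of 13 tested members of this list 3 were higher and 1 lower in both.

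A mitochondrial chaperonin pair moved in opposite directions. HSP60 (AT3G23990) fell from 29.5 to 57.1 rpm to 0.446 to 1.56 rpm (-5.31 ± 0.22, adjusted p = 1.3e-07) and HSP60-2 (AT2G33210) rose from 25.1 to 45.8 rpm to 58.9 to 146 rpm (1.57 ± 0.19, adjusted p = 6.2e-05). Their sum was 75.3 rpm in C3 and 108 rpm in each intermediate and did not pass (0.41 ± 0.19, adjusted p = 0.091). Such opposite pairs of closest matches numbered 12, and the sum of 2 of them still moved in both. The 12 pairs include AT4G10320, annotated as a class I tRNA synthetase, which rose from 43.5 to 58.1 rpm to 123 to 267 rpm (2.04 ± 0.14, adjusted p = 1e-06), and its match OVA2 (AT5G49030), which averaged 142 rpm in C3 and 92.9 and 58.7 rpm in the intermediates. Summed, this pair passed in the mean but not in both (0.53 ± 0.14, adjusted p = 0.0086), and the call of OVA2 was also lost in 6 of the 11 fits that leave out 1 plant, those without *M. moricandioides* plant 6 or 8, *M. arvensis* plant 12, 13 or 15 or *M. suffruticosa* plant 7 (-1.03 to -0.90).

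Transcripts of the photosystems stayed short of the threshold, and those of chlorophyll synthesis stayed short of it or fell. Of 26 tested transcripts of light harvesting and the photosystems, 0 moved in both and 0 passed in the C3–C4 mean, with a median log2 fold change of -0.18 (lowest -0.82, highest 0.42). Chlorophyll synthesis had 4 members lower in both (20%, against 5.37% of all tested) and 0 higher among 20 tested. Of the 20 log2 fold changes 19 were below 0 (median -0.53). Protochlorophyllide oxidoreductase makes the light-dependent reduction step, and its transcript PORB (AT4G27440) stood at 901, 878, 1027 and 814 rpm in C3, 423, 444, 622 and 666 rpm in *M. arvensis* and 594, 629 and 437 rpm in *M. suffruticosa*. No intermediate plant reached the C3 range (-0.84 ± 0.14, adjusted p = 0.00049). The others were PORC (AT1G03630), HEMC (AT5G08280) and DVR (AT5G18660), with log2 fold changes of -1.15 ± 0.18, -1.03 ± 0.15 and -0.92 ± 0.14. Without *M. suffruticosa* plant 6 or 7 the calls of PORB, PORC and DVR in both were lost (-0.87 to -0.76, -1.13 to -1.10 and -0.92 to -0.91), that of PORB also without *M. suffruticosa* plant 8 or *M. moricandioides* plant 6 or 12. With libraries scaled by their totals the median of all tested transcripts shifted by 0.102, and differences of this size depend on the scaling.

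GLK2 (AT5G44190), a transcription factor that drives chloroplast development and genes of chlorophyll synthesis and light harvesting, fell in both. Its levels were 198, 168, 215 and 199 rpm in C3, 51.3, 63.5, 50 and 46.5 rpm in *M. arvensis* and 60.3, 60.2 and 81.5 rpm in *M. suffruticosa*. The lowest C3 plant, at 168 rpm, was far above the highest intermediate plant, at 81.5 rpm (-1.80 ± 0.17, adjusted p = 1.1e-05). Its partner GLK1 (AT2G20570) averaged 137 rpm in C3, 127 rpm in *M. arvensis* plants and 234 rpm in those of *M. suffruticosa* and did not pass (0.21 ± 0.16, adjusted p = 0.31). The sum of both was 332, 180 and 301 rpm and did not move in both (-0.62 ± 0.14, adjusted p = 0.0029 for the C3–C4 mean). MIND1 (AT5G24020), which places the chloroplast division site, fell from 44.3 to 51.6 rpm to 27.9 to 39.5 rpm (-0.64 ± 0.09, adjusted p = 0.00016), a call in both that was lost with the close pairs of plants summed (-0.65).

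In the Calvin-Benson-Bassham cycle 1 of 18 tested transcripts was higher and 2 were lower in both, with a median of -0.58. These are 5.56% and 11.1%, against 6.13% and 5.37% of all tested transcripts. The higher one was CP12-2 (AT3G62410), a small linker that inactivates enzymes of the cycle in the dark. It stood at 565, 598, 503 and 560 rpm in C3, 2703, 1623, 1834 and 1617 rpm in *M. arvensis* plants and 2306, 1825 and 1290 rpm in the *M. suffruticosa* plants, with no overlap (1.68 ± 0.25, adjusted p = 0.00026). Its match CP12-1 (AT2G47400) had 1688 rpm in C3 against 1698 and 1313 rpm, and their sum did not pass (0.50 ± 0.22, adjusted p = 0.084). Ribose 5-phosphate isomerase RPI (AT3G04790) fell from 314 to 463 rpm to 166 to 279 rpm (-1.01 ± 0.19, adjusted p = 0.0011). The triose phosphate isomerase transcript AT2G21170 fell from 482 to 559 rpm to 249 to 354 rpm (-0.90 ± 0.13, adjusted p = 0.00019), and its sum with its match AT3G55440 was level, at 974 rpm in C3 and 1006 and 1067 rpm (log2 fold change 0.00 ± 0.14). The call of AT2G21170 was lost without *M. suffruticosa* plant 6 or 7 (-0.87 to -0.86), and that of RPI without either of these, *M. moricandioides* plant 8 or 15 or *M. arvensis* plant 12, 13 or 15 (-0.99 to -0.95).

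Starch transcripts moved in both directions. Synthesis had 2 higher and 3 lower in both of 13 tested (15.4% and 23.1%). Breakdown had 3 higher and 0 lower of 11 (27.3% and 0%). Over all tested transcripts the shares were 6.13% and 5.37%. The median log2 fold change of the breakdown members was 1.00. Among them DPE1 (AT5G64860), which recycles short maltooligosaccharides in the plastid, went from 35.1, 26.4, 25.9 and 24.7 rpm to 99.9, 94.8, 107 and 101 rpm in *M. arvensis* and 67.3, 68 and 60 rpm in *M. suffruticosa*. The 3 species did not overlap and *M. arvensis* was highest (1.44 ± 0.13, adjusted p = 1e-05). The phosphoglucan phosphatase SEX4 (AT3G52180) rose from 28.9 to 51.5 rpm to 61.7 to 149 rpm (1.27 ± 0.19, adjusted p = 0.00021) and the glucan phosphorylating enzyme PWD (AT5G26570) from 41.3 to 52.3 rpm to 154 to 270 rpm (1.96 ± 0.12, adjusted p = 8.5e-07). On the synthesis side the branching enzyme SBE2.1 (AT2G36390) rose from 33.9, 18.1, 18.4 and 13.6 rpm to 101, 58, 78.7 and 85.8 rpm and to 199, 173 and 133 rpm. *M. suffruticosa* was above *M. arvensis* in every plant (2.40 ± 0.28, adjusted p = 4.3e-05), while the sum with its more abundant match SBE2.2 (AT5G03650) passed in the mean but not in both (0.70 ± 0.15, adjusted p = 0.0027). ISA2 (AT1G03310), a subunit of the debranching complex, rose by 1.63 ± 0.27 on the log2 scale (adjusted p = 0.00044). Starch synthase SS1 (AT5G24300) fell from 126 to 134 rpm, a narrow range, to 40.2 to 64.3 rpm (-1.35 ± 0.16, adjusted p = 4.9e-05), while its sum with its closest match did not pass (-0.49, adjusted p = 0.028). Leaving out *M. suffruticosa* plant 6 or 7, *M. moricandioides* plant 8 or 15 or *M. arvensis* plant 13 or 15 ended the call of SEX4 (1.09 to 1.26), and any *M. moricandioides* plant or *M. arvensis* plant 9, 13 or 15 that of ISA2 (1.50 to 1.73).

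**Figure D2:**
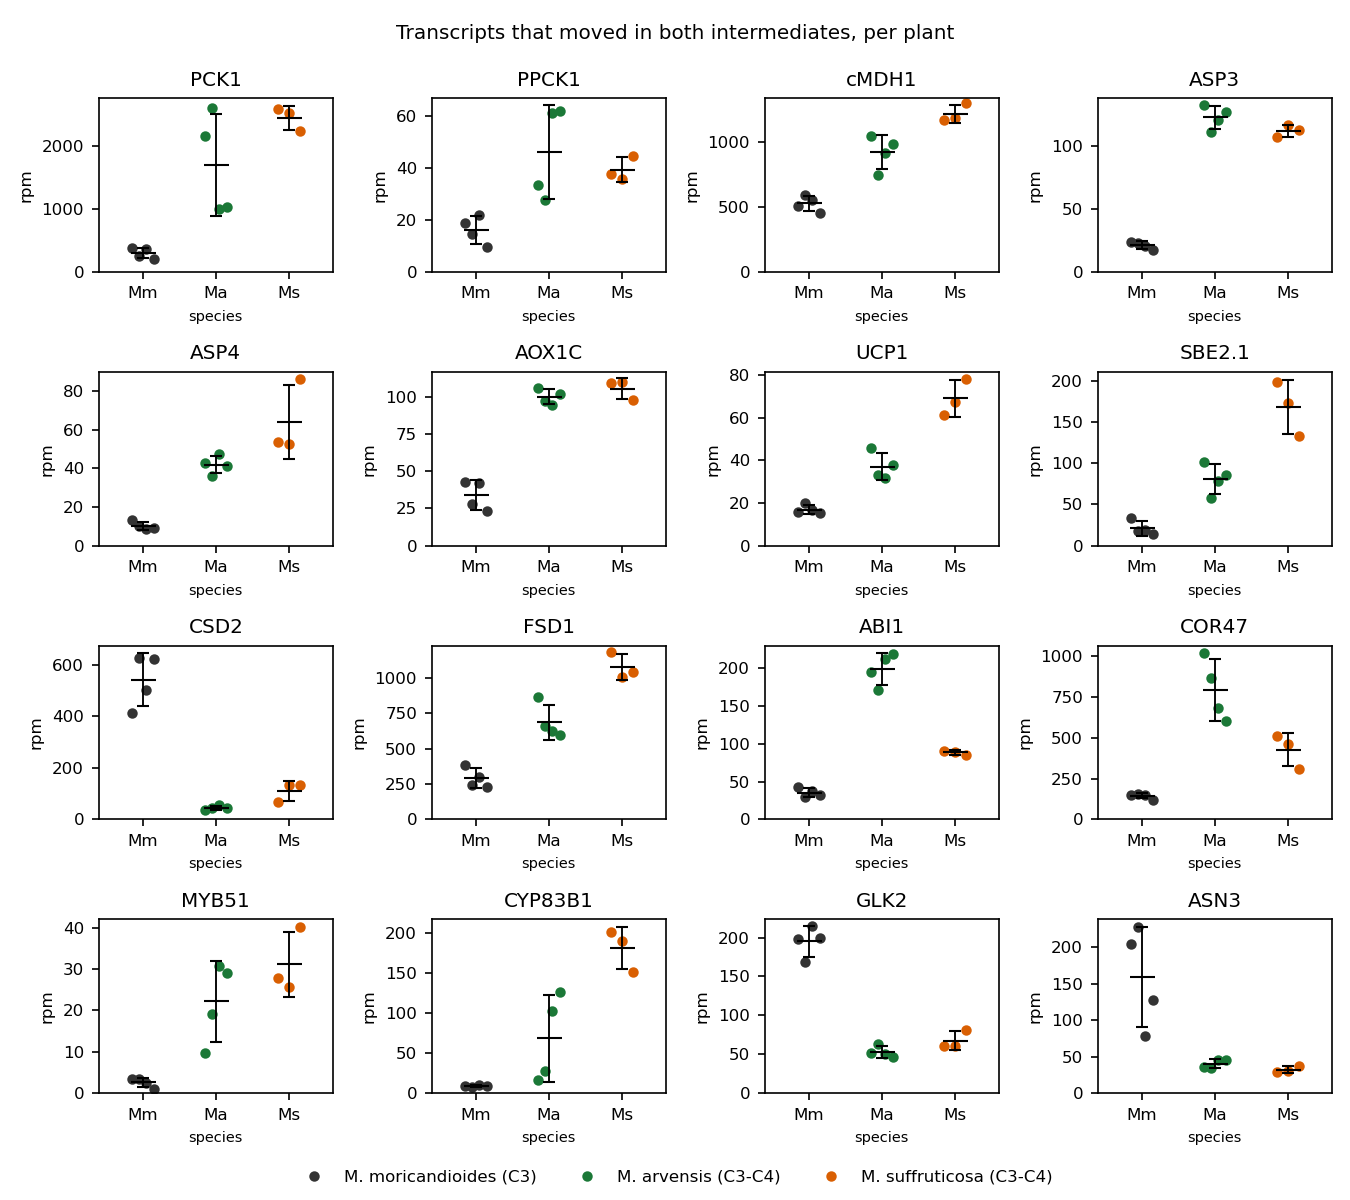
Abundance in rpm (vertical axes, from 0) of 16 transcripts that moved in both intermediates, with 1 point per plant, by species (Mm, *M. moricandioides*; Ma, *M. arvensis*; Ms, *M. suffruticosa*). Bars show the mean and SD over 4, 4 and 3 plants. In every panel the C3 plants lie wholly below or wholly above the intermediate plants, as in ASP3 with 17.4 to 24 rpm against 107 to 132 rpm and GLK2 with 168 to 215 rpm against 46.5 to 81.5 rpm.

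A copper/zinc superoxide dismutase fell and the iron form rose. CSD2 (AT2G28190), the copper/zinc enzyme of the chloroplast, fell from 413, 627, 503 and 622 rpm to 36.4, 42.8, 54.9 and 45.1 rpm in *M. arvensis* and 66.6, 132 and 132 rpm in *M. suffruticosa* (-3.05 ± 0.20, adjusted p = 9e-07). All plants of the intermediates were far below the C3 range, *M. arvensis* lowest, and the difference between the intermediates was called (adjusted p = 0.0013). The cytosolic copper/zinc enzyme CSD1 (AT1G08830) averaged 398 rpm in C3 and 92.8 and 194 rpm in the intermediates (-1.70 ± 0.27, adjusted p = 0.00034 for the mean). It passed in the mean and in *M. arvensis* (adjusted p = 0.00013) but not in *M. suffruticosa* (adjusted p = 0.025). Summed with CSD2 it was lower in both (-2.32 ± 0.23, adjusted p = 1.7e-05). FSD1 (AT4G25100), the iron enzyme that serves the chloroplast when copper is short, rose from 385, 240, 303 and 231 rpm to 868, 661, 626 and 597 rpm and to 1183, 1006 and 1042 rpm. The order was C3, *M. arvensis*, *M. suffruticosa* with no overlap (1.50 ± 0.23, adjusted p = 0.00028). Other transcripts of copper handling did not pass, the copper transporter COPT2 (AT3G46900) at 1.30 ± 0.51 (adjusted p = 0.057) and the copper chaperone CCS (AT1G12520) at -0.12 ± 0.25 (adjusted p = 0.73).

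Of 11 tested transcripts of zinc and iron uptake 4 were higher and 1 was lower in both intermediates. These are 36.4% and 9.09%, against 6.13% and 5.37% of all tested transcripts. Of the 11 log2 fold changes of the mean 10 were above 0 (median 1.52). ZIP4 (AT1G10970), a transporter induced by zinc shortage, went from 4.51, 2.45, 2.83 and 2.42 rpm to 22.3, 22.9, 34.2 and 33.2 rpm and to 18.9, 22.6 and 9.83 rpm (2.73 ± 0.25, adjusted p = 8.1e-06). The lowest intermediate plant, *M. suffruticosa* plant 8, was still above the C3 plants. ZIP9 (AT4G33020) had 2 reads over the C3 plants and 302 over the intermediates, which is 94.6 times the C3 share of reads (95% exact interval 26 to 785). This pooled ratio rests mostly on *M. arvensis*, with 271 of the reads (4.1 to 7.59 rpm). *M. suffruticosa* had 31 (0.566 to 0.921 rpm). The nicotianamine synthases NAS1 (AT5G04950) and NAS3 (AT1G09240), which make a chelator of iron and zinc, rose from 5.18 to 9.85 and 1.75 to 5.94 rpm to 11.6 to 30.3 and 12.2 to 16.6 rpm (1.52 ± 0.26 and 1.87 ± 0.28, adjusted p = 0.00055 and 0.00027), the call of NAS1 being lost without *M. suffruticosa* plant 6 (1.38). ZIP10 (AT1G31260) fell from 32.6, 30.9, 21.1 and 24.5 rpm to 2.82, 4.37, 4.77 and 4.65 rpm and to 0.425, 0.141 and 0 rpm (-4.96 ± 0.26, adjusted p = 2.3e-07), with *M. suffruticosa* far below *M. arvensis*. Of the whole metal list 5 were higher and 2 lower in both of 20 tested.

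Abscisic acid signalling and its targets gave 3 higher and 1 lower in both of 17 tested. ABI1 (AT4G26080), a protein phosphatase that holds the signal back, stood at 42.5, 29.6, 36.9 and 31.6 rpm in C3, 195, 172, 213 and 219 rpm in *M. arvensis* and 91.1, 89.9 and 84.9 rpm in *M. suffruticosa*. The species formed 3 tight, separate groups (1.82 ± 0.15, adjusted p = 3.8e-06 for the mean and 0.00045 between the intermediates). ABF3 (AT4G34000), a transcription factor of the response, rose from 7.08 to 8.24 rpm to 34.1 to 51.7 rpm in *M. arvensis*, with 12.2 to 15.7 rpm in *M. suffruticosa* (1.61 ± 0.18, adjusted p = 3e-05). Its call in both was lost without any 1 plant other than *M. arvensis* plant 9, 12 or 15 (1.54 to 1.67). The dehydrin COR47 (AT1G20440) went from 152, 155, 152 and 120 rpm to 1020, 867, 680 and 601 rpm and to 509, 461 and 311 rpm, again without overlap (1.93 ± 0.24, adjusted p = 7.3e-05). KIN1 (AT5G15960), another protein induced by cold and abscisic acid, moved the other way, from 244, 204, 339 and 137 rpm to 24.3, 24.4, 10.1 and 7.15 rpm and to 15.5, 5.3 and 10 rpm (-4.21 ± 0.44, adjusted p = 2.1e-05). The KIN1 match KIN2, the COR47 match ERD10 and the ABI1 match ABI2 are each listed at 0 reads.

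Transcripts of leaf ageing and darkness were higher in both in 2 of 16 tested cases, SEN1 and NAP (12.5%, against 6.13% of all tested). SEN1 (AT4G35770), a transcript induced in darkened leaves, went from 0.208, 0.0816, 0.217 and 0.269 rpm to 9.78, 41.8, 231 and 194 rpm and to 21.3, 19.5 and 45.7 rpm (7.99 ± 1.02, adjusted p = 7.9e-05). Every intermediate plant was far above C3, with *M. arvensis* plants 13 and 15 highest, but the sum of SEN1 and its closest match STR16 did not pass (0.19 ± 0.26, adjusted p = 0.57). NAP (AT1G69490), a NAC transcription factor that promotes leaf ageing, went from 0.208, 0.489, 0.435 and 0.807 rpm to 12.7, 16, 22.4 and 22.8 rpm in *M. arvensis* and 5.52, 3.75 and 1.37 rpm in *M. suffruticosa* (3.91 ± 0.41, adjusted p = 2.2e-05). The lowest intermediate plant was less than 1 rpm above the highest C3 plant, and the intermediates differed (adjusted p = 0.00096). The jasmonate conjugating enzyme JAR1 (AT2G46370) fell from 65.7 to 87.7 rpm to 25.8 to 47.2 rpm (-1.19 ± 0.13, adjusted p = 2.7e-05), the only common change among 15 tested transcripts of salicylic acid and jasmonate. Summed with its closest match it passed in the mean but not in both (-0.73, adjusted p = 0.0012).

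Indole glucosinolates, tryptophan-derived defence compounds of the Brassicaceae, are made by the enzymes CYP79B2 and CYP79B3, then CYP83B1, under the activator MYB51. MYB51 (AT1G18570) stood at 3.4, 3.43, 2.46 and 1.01 rpm in C3, 9.7, 19.1, 30.8 and 29.1 rpm in *M. arvensis* and 27.8, 25.6 and 40.1 rpm in *M. suffruticosa*. All intermediate plants were above the C3 range, *M. arvensis* plant 9 least (3.25 ± 0.34, adjusted p = 2.4e-05). CYP79B3 (AT2G22330) went from 0.972, 1.14, 1.3 and 2.42 rpm to 7.43, 8.56, 43.6 and 61.7 rpm and to 11.5, 8.34 and 7.92 rpm (3.34 ± 0.59, adjusted p = 0.00072). Within *M. arvensis* plants 13 and 15 were high and plants 9 and 12 low, and the same plants parted for CYP83B1 (AT4G31500), with 7.01 to 10.6 rpm in C3, 16.2, 27.6, 103 and 127 rpm in *M. arvensis* and 152 to 202 rpm in *M. suffruticosa* (3.52 ± 0.47, adjusted p = 0.00011). CYP81F2 (AT5G57220), which hydroxylates the indole ring, rose from 2.94 to 9.85 rpm to 13.8 to 36.8 rpm (1.98 ± 0.31, adjusted p = 0.00034). The call of CYP81F2 was lost without *M. moricandioides* plant 6 or 15 or *M. suffruticosa* plant 6 or 7 (1.80 to 1.97), and that of CYP79B3 without any *M. moricandioides* or *M. suffruticosa* plant or *M. arvensis* plant 13 (3.16 to 3.72). Of the 6 tested indole and shared genes on the list used here 3 were higher in both. Of the 10 tested aliphatic genes on it 0 moved in both (medians 1.46 and 0.10). The list does not hold every gene of these pathways. CYP83A1 (AT4G13770), the aliphatic counterpart and closest match of CYP83B1, had 923 rpm in C3 against 814 and 1378 rpm (0.09 ± 0.25, adjusted p = 0.79), and the sum of CYP83A1 and CYP83B1 did not pass (0.22, adjusted p = 0.49).

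Among clock genes PRR3 (AT5G60100) rose from 47.4 to 94.5 rpm to 95.2 to 154 rpm (0.77 ± 0.17, adjusted p = 0.0028), with the lowest intermediate plant barely above the highest C3 plant and a call that was lost in 8 of the 11 fits that leave out 1 plant (0.62 to 0.77), those of *M. moricandioides* plants 6, 12 and 15, *M. arvensis* plants 9, 13 and 15 and *M. suffruticosa* plants 6 and 7. The sum of PRR3 with its closest match PRR7 passed in the mean but not in both (0.54 ± 0.13, adjusted p = 0.0057). The rare evening gene ELF4 (AT2G40080) rose from 0.202 to 0.833 rpm to 1.25 to 5.66 rpm (2.46 ± 0.40, adjusted p = 0.00041). The call of ELF4 in both was lost with the close pairs of plants summed (2.34). PRR3 and ELF4 were the 2 of 18 tested that were higher in both (11.1%, against 6.13% of all tested), and 0 were lower. In leaf and vein patterning the GRAS transcription factor SCL23 (AT5G41920), which acts in bundle sheath cells of Arabidopsis, was the only common change of 14 tested. It stood at 4.03, 2.85, 4.13 and 2.15 rpm in C3, 11, 16.6, 21.1 and 21.4 rpm in *M. arvensis* and 14.1, 15.8 and 7.55 rpm in *M. suffruticosa*, all above C3 (2.04 ± 0.24, adjusted p = 4.9e-05). Its closest match SCARECROW (SCR, AT3G54220) averaged 20.3, 21.5 and 18.9 rpm (-0.12 ± 0.15, adjusted p = 0.56), and their sum did not move in both (0.45 ± 0.15, adjusted p = 0.029).

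For sulfur assimilation and starvation 0 of 15 transcripts moved in both, although 14 of the 15 log2 fold changes were above 0 (median 0.94) and 4 passed in the mean. The most abundant of the 15 was APR2 (AT1G62180), which reduces activated sulfate and did not pass in the mean. It stood at 769, 277, 736 and 184 rpm in C3, 1926, 1843, 1504 and 1671 rpm in *M. arvensis* and 990, 926 and 688 rpm in *M. suffruticosa*. The C3 plants differed widely and overlapped *M. suffruticosa* (1.23 ± 0.37, adjusted p = 0.017). Among 12 phosphate starvation genes and 8 flowering regulators 0 moved in both.

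**Figure D3:**
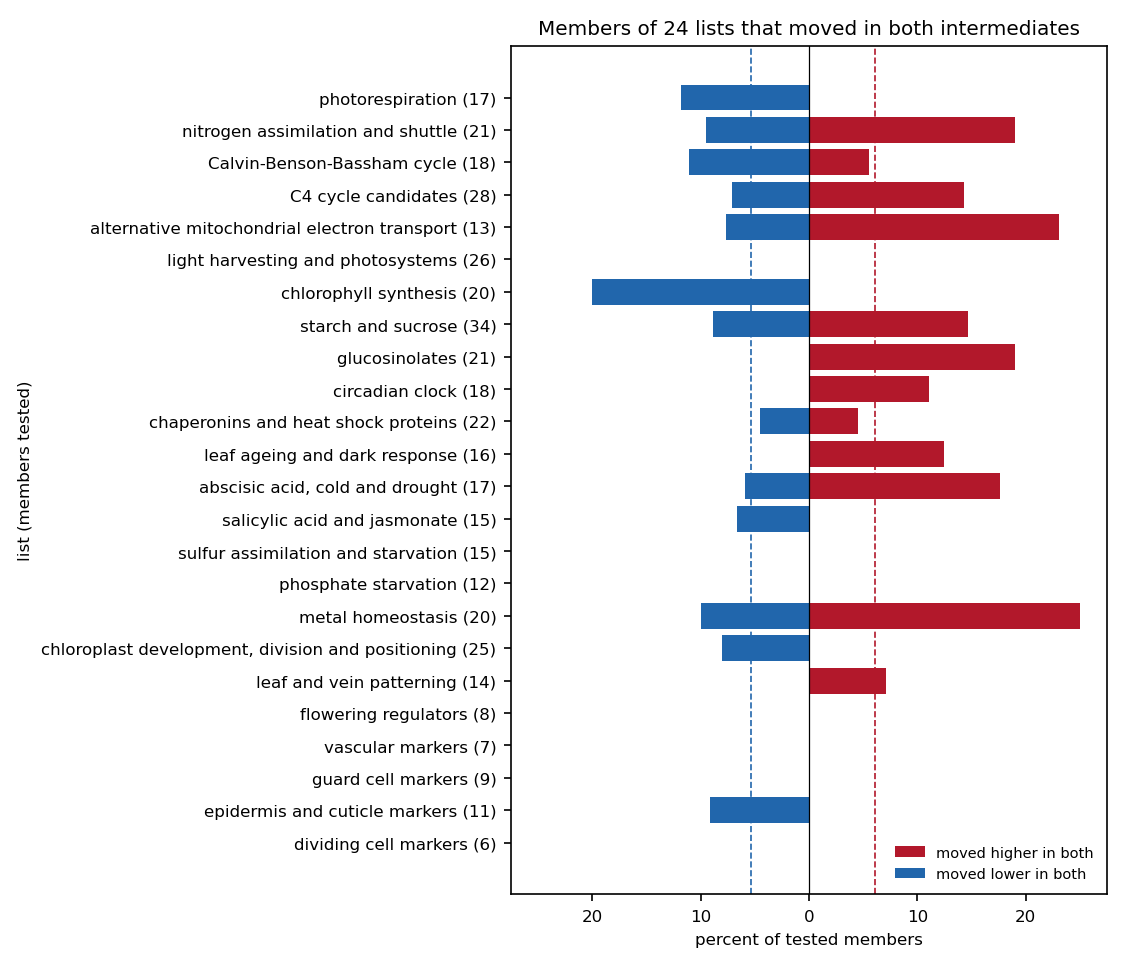
Percent of the tested members of 24 gene lists that moved higher (red, to the right) or lower (blue, to the left) in both intermediates, with the number tested in brackets. Dashed lines mark the shares over all tested transcripts, 6.13% higher and 5.37% lower. Metal homeostasis (5 of 20), alternative mitochondrial electron transport (3 of 13), glucosinolates and nitrogen (4 of 21 each) have the longest higher bars and chlorophyll synthesis (4 of 20) the longest lower bar, each resting on 3 to 5 transcripts.

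The strongest differences were found in transcripts with little or no signal in the other type. Among those of at least 10 rpm in the higher type and without overlap, the 12 highest log2 fold changes ran from 5.65 to 8.23 and the 12 lowest from -8.45 to -5.05. The amino acid transporter CAT5 (AT2G34960) rose from 0.347, 0.326, 0.29 and 0.202 rpm to 2.97, 16, 23.8 and 26.4 rpm and to 16.2, 16.6 and 17.3 rpm, with *M. arvensis* plant 9 the only low intermediate plant (5.69 ± 0.54, adjusted p = 1.2e-05), although its sum with its closest match did not pass (0.69, adjusted p = 0.069). AT4G36470, annotated as a methyltransferase that uses S-adenosylmethionine, rose from 0.0673 to 0.816 rpm to 16.4 to 44.3 rpm (6.55 ± 0.37, adjusted p = 3.8e-07). AT4G28940, a member of the phosphorylase superfamily, stood at 0.807 to 4.38 rpm in C3, 190, 57.1, 31 and 25.3 rpm in *M. arvensis* and 508, 613 and 443 rpm in *M. suffruticosa*. Here *M. suffruticosa* was highest, and within *M. arvensis* plant 9 stood apart upwards (6.58 ± 0.84, adjusted p = 8.2e-05). The closest match of AT4G28940, AT4G24340, was lower in both, averaging 154 rpm in C3 and 8.33 and 10.9 rpm in the intermediates. Their sum was not tested.

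On the lower side FWA (AT4G25530), a homeodomain transcription factor silenced in vegetative tissue of Arabidopsis, went from 26.3, 13.5, 13.6 and 34.5 rpm to 0.157, 1.16, 0.447 and 0.517 rpm and to 0.142, 0.0707 and 0 rpm (-6.76 ± 0.46, adjusted p = 1e-06). The FKBP-like isomerase AT4G26555 fell from 45.1, 29.5, 43.3 and 44.5 rpm to 0, 0, 0 and 0.0862 rpm in *M. arvensis* and 6.09, 5.3 and 3 rpm in *M. suffruticosa*, where it remained clearly detectable (-6.84 ± 0.30, adjusted p = 1.3e-07, and 4.9e-06 between the intermediates). Its sum with its closest match passed in the mean but not in both (-0.93, adjusted p = 0.0017). AT3G02480, a late embryogenesis abundant protein, fell from 57.9 to 106 rpm to 0.373 to 3.75 rpm (-5.92 ± 0.38, adjusted p = 8.5e-07). AT1G73120, which carries no description, fell from 7.02 to 30.5 rpm to 0 reads in *M. arvensis* and 0.142 to 0.283 rpm in *M. suffruticosa*.

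**Figure D4:**
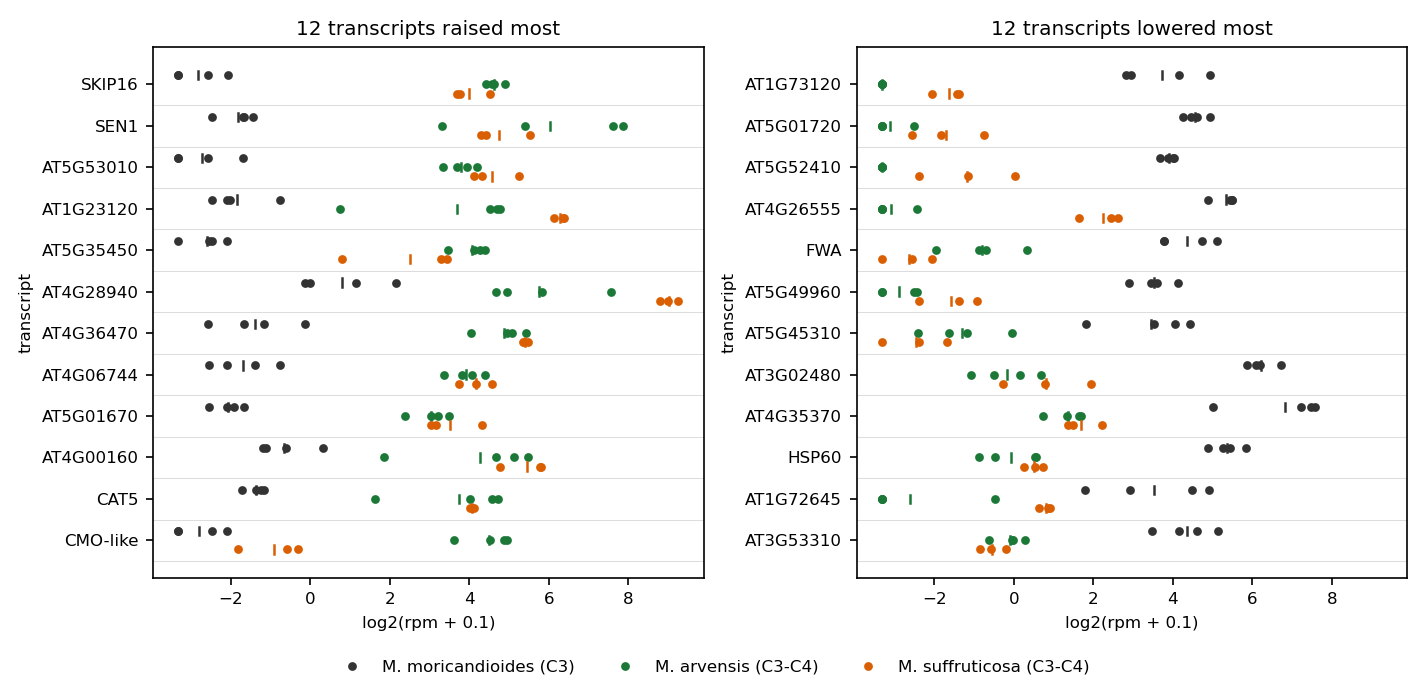
Abundance as log2(rpm + 0.1) (horizontal axis) of the 12 transcripts with the highest and the 12 with the lowest log2 fold change of the C3–C4 mean, each of at least 10 rpm in the higher type and without overlap, with 1 point per plant and a tick at the species mean. By this choice C3 plants (black) stand apart from both intermediates in every row. *M. arvensis* (green) and *M. suffruticosa* (orange) differ from each other in some rows, as in AT4G26555 with up to 0.0862 rpm in *M. arvensis* and at least 3 rpm in *M. suffruticosa*.

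At most 3 reads over all C3 plants were found for 56 of the higher transcripts (20 of them with 0), and at most 3 over all intermediate plants for 18 of the lower ones (2 with 0). The F-box protein SKIP16 (AT1G06110) had 3 reads in C3 and 1830 in the intermediates, 382 times the C3 share of reads (95% exact interval 131 to 1856), with 12.8 to 29.5 rpm in the intermediate plants. AT4G12710, annotated as an ARM repeat protein, had 2 reads against 817 (ratio 256, interval 70.7 to 2118), and NAC027 (AT1G64105) had 0 against 306, which is at least 63.9-fold higher from a floor of 3 reads over the group. In the other direction the histidine kinase CKI1 (AT2G47430) had 322 reads in C3 and 1 in the intermediates (ratio 514, interval 91.6 to 20354), the glycosyltransferase-like ARAD2 (AT5G44930) 303 and 1 (483, interval 86.1 to 19156) and the PHD finger protein AT5G58610 230 and 0, at least 122-fold lower. The sum of ARAD2 with its closest match did not pass (-0.52, adjusted p = 0.029). A read count near 0 in a mapping to another species can also stand for sequence that no longer matches or matches a relative better, which was not tested.

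Among the abundant transcripts that moved in both was the cysteine proteinase AT3G45310, with 517, 463, 658 and 395 rpm in C3, 3241, 2197, 2810 and 2930 rpm in *M. arvensis* and 1322, 1212 and 937 rpm in *M. suffruticosa* (1.73 ± 0.22, adjusted p = 8.1e-05). MLP28 (AT1G70830), of the major latex protein family, rose from 267 to 510 rpm to 1266 to 3079 rpm (2.18 ± 0.27, adjusted p = 6.4e-05). Germin-like GER1 (AT1G72610) fell from 3499, 3775, 3160 and 3345 rpm to 620, 633, 885 and 847 rpm in *M. arvensis* and 2420, 2459 and 1924 rpm in *M. suffruticosa*. The fall was much deeper in *M. arvensis* (-1.51 ± 0.13, adjusted p = 5.6e-06 for the mean and 2.5e-05 between the intermediates). Chloroplast proteins followed with falls in both species: the elongation factor RABE1b (AT4G20360) from 1649 to 2244 rpm to 1017 to 1207 rpm (-0.84 ± 0.14, adjusted p = 0.0005), the cyclophilin ROC4 (AT3G62030) from 1456 to 1940 rpm to 537 to 825 rpm (-1.44 ± 0.20, adjusted p = 0.00013), and the DNAJ protein AT2G42750 from 886 to 1269 rpm to 313 to 609 rpm (-1.35 ± 0.21, adjusted p = 0.00032). Among these, the calls of AT3G45310 and GER1 were lost in 5 and 7 of the 11 fits that leave out 1 plant (1.62 to 1.73 and -1.54 to -1.47), each without *M. moricandioides* plant 6, 8 or 15 or *M. suffruticosa* plant 6 or 7, and GER1 also without *M. moricandioides* plant 12 or *M. suffruticosa* plant 8. RABE1b was no longer called without any *M. suffruticosa* plant (-0.85 to -0.83), ROC4 without *M. suffruticosa* plant 6 (-1.43) and AT2G42750 without *M. moricandioides* plant 6 (-1.25).

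Of the 20 most abundant transcripts of these leaves, which held 25.1% of counted reads in C3 plants, 21.4% in *M. arvensis* and 23.7% in *M. suffruticosa*, 0 moved in both. In the mean 4 of them were lower and 1 higher. The lower ones were the Rubisco small subunits RBCS1A (AT1G67090) and RBCS3B (AT5G38410), the carbonic anhydrase CA1 (AT3G01500) and the glyceraldehyde phosphate dehydrogenase GAPA2 (AT1G12900), with log2 fold changes of -0.89 ± 0.23, -0.88 ± 0.23, -1.22 ± 0.25 and -1.01 ± 0.24. The higher one was AT5G54770, annotated as the thiazole biosynthetic enzyme THI1 of thiamine synthesis, at 5536 rpm in C3 and 14808 and 8309 rpm in the intermediates (0.92 ± 0.19, adjusted p = 0.002).

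Grouped by words in the deposited descriptions, some transcription factor families are given beside the shares over all tested transcripts (6.13% higher and 5.37% lower), with no test between families. Of 37 tested NAC genes 7 were higher and 0 lower in both (18.9% higher, median 0.55), and of 57 MYB genes 6 and 0. NAC1 (AT1G56010), known from auxin signalling in roots, stood at 5.21, 2.45, 2.9 and 2.15 rpm in C3, 21.4, 26.9, 41.6 and 37.8 rpm in *M. arvensis* and 10.1, 7.49 and 6.01 rpm in *M. suffruticosa* plants, all above C3 (log2 fold changes of 3.18 ± 0.27 and 1.23 ± 0.28 in the separate species, adjusted p = 3.6e-05 for the mean). MYB3 (AT1G22640), a repressor of phenylpropanoid synthesis, rose from 4.51 to 5 rpm to 25.2 to 35.8 rpm and 10.3 to 12.5 rpm (1.87 ± 0.13, adjusted p = 1e-06). For WRKY genes 0 of 37 were higher and 3 lower in both (median 0.13), among them WRKY15 (AT2G23320), which fell from 15.9 to 17 rpm to 2.03 to 10.2 rpm (-1.42 ± 0.24, adjusted p = 0.00052). SCRM2 (AT1G12860), a bHLH protein of stomatal development and cold response, rose from 24.2 to 33.6 rpm to 63.1 to 118 rpm (1.42 ± 0.18, adjusted p = 7.4e-05), and the growth-promoting bHLH protein PRE1 (AT5G39860) fell from 4.38 to 9.14 rpm to 0.172 to 0.566 rpm (-4.08 ± 0.33, adjusted p = 3.8e-06). The sum of PRE1 and its closest match passed in the mean but not in both (-1.64, adjusted p = 0.00017). The calls of NAC1 and WRKY15 were lost without *M. moricandioides* plant 8, 12 or 15 or *M. suffruticosa* plant 6 or 7 (2.05 to 2.24 and -1.46 to -1.40), that of WRKY15 also without *M. moricandioides* plant 6 or *M. suffruticosa* plant 8. Disease resistance genes had 12 of 95 higher and 3 lower in both (median 0.53), and F-box genes 22 and 12 of 157 (median 0.43). CSA1 (AT5G17880), an immune receptor of the TIR class, rose from an average of 3 rpm in C3 to 42.8 rpm and 35.5 rpm (3.57 ± 0.27, adjusted p = 2.7e-06).

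In cell wall groups more members were lower than higher. Among 32 tested expansins and xyloglucan transferases 6 were lower in both and 0 higher, with a median log2 fold change of -0.77. XTH4 (AT2G06850), which cuts and rejoins xyloglucan, stood at 46, 284, 173 and 96 rpm in C3, 6.1, 9.81, 5.44 and 4.91 rpm in *M. arvensis* and 33.7, 41.8 and 30.8 rpm in *M. suffruticosa*. The C3 plants spread widely, and their lowest was only just above *M. suffruticosa* (-3.38 ± 0.39, adjusted p = 4e-05). The call was lost without *M. moricandioides* plant 8 or 12 or any *M. suffruticosa* plant (-3.42 to -2.96). XTH16 (AT3G23730) fell from 19.8 to 53.7 rpm to 4.46 to 13.6 rpm (-2.27 ± 0.25, adjusted p = 3e-05), and the extensin-like AT2G43150 from 67.5 to 177 rpm to 7.21 to 24.2 rpm (-3.37 ± 0.27, adjusted p = 3.5e-06). Pectin enzymes had 9 lower and 5 higher of 67 (13.4% and 7.46%, median -0.78). Aquaporins had 4 lower and 1 higher of 21 (19% and 4.76%, median -0.69). Over all tested transcripts 5.37% were lower and 6.13% higher in both. The epidermal marker sum given above was also lower in every *M. arvensis* plant than in every C3 plant, and its part in these groups was not tested.

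**Figure D5:**
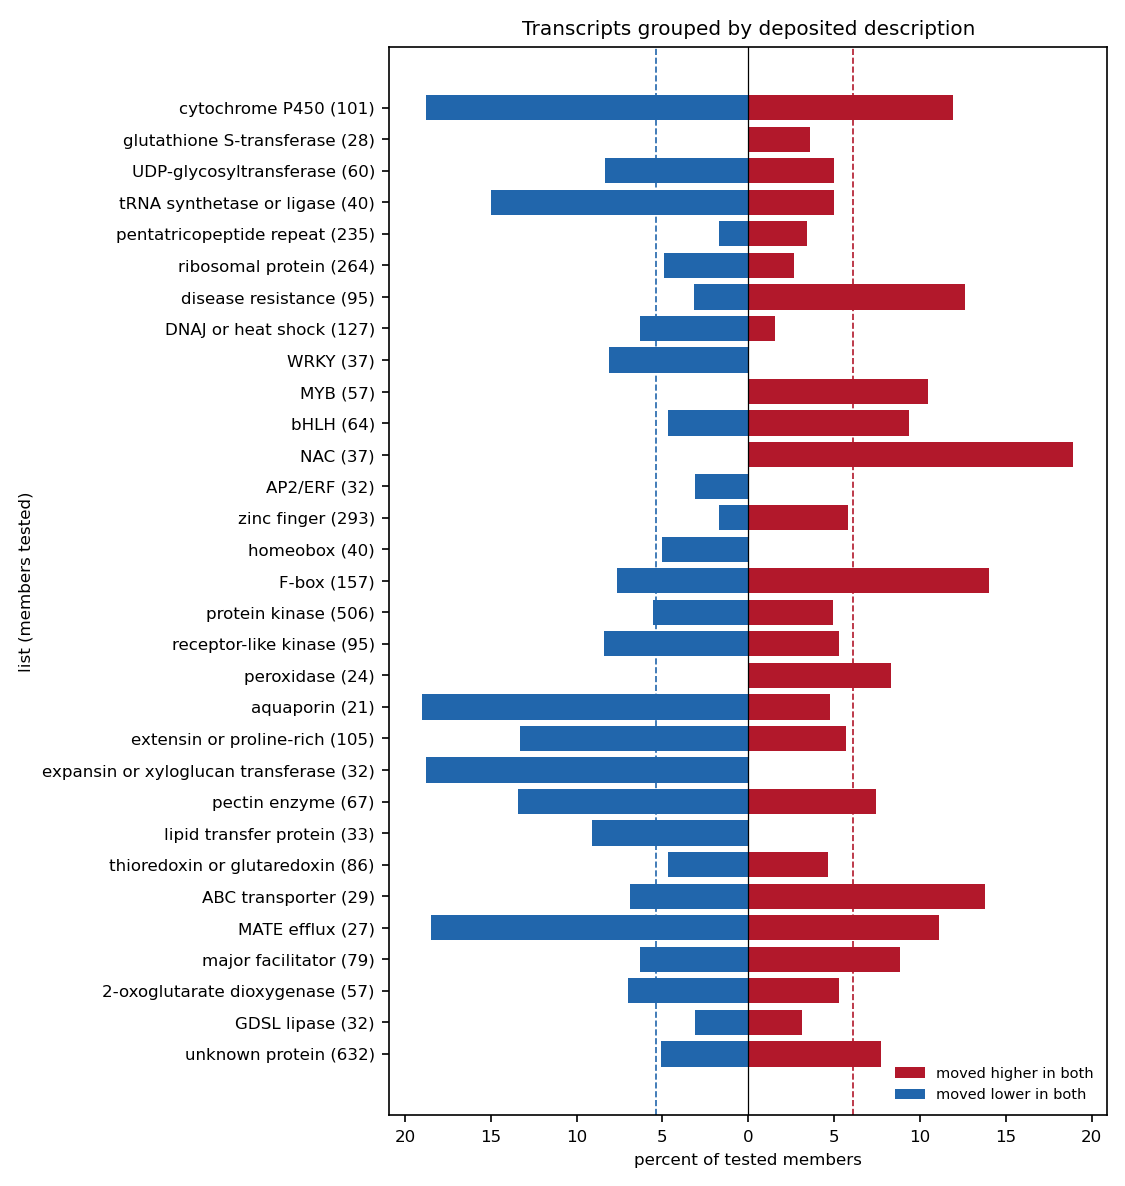
Percent of the tested transcripts in 31 groups formed from words of the deposited descriptions that moved higher (red, to the right) or lower (blue, to the left) in both intermediates, with the number tested in brackets. Dashed lines mark the shares over all tested transcripts. NAC genes have 18.9% higher and 0% lower, and expansins or xyloglucan transferases 18.8% lower and 0% higher.

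Cytochrome P450 genes moved in both directions, with 12 higher and 19 lower of 101. These are 11.9% and 18.8%, against 6.13% and 5.37% of all tested transcripts. CYP710A3 (AT2G28850) and CYP710A2 (AT2G34490), sterol desaturases, rose from 2.49 to 4.49 and 6.05 to 11.3 rpm to 27.2 to 48.9 and 60.7 to 104 rpm (3.41 ± 0.18 and 3.01 ± 0.18, adjusted p = 2.3e-07 and 7.7e-07), and the neighbouring copies CYP710A1 and CYP710A4 are listed at 0. CYP71A28 (AT4G20235) fell from 19.4 to 38.9 rpm to 0.981 to 4.25 rpm (-3.77 ± 0.20, adjusted p = 2.3e-07). The MATE efflux transporter AT1G15150 fell from 183, 159, 163 and 162 rpm to 7.36, 8.92, 9.69 and 10.3 rpm in *M. arvensis* and 13.3, 8.27 and 3.73 rpm in *M. suffruticosa* (-4.35 ± 0.23, adjusted p = 2.3e-07, with species values of -4.33 and -4.38). AT2G25450, annotated as a 2-oxoglutarate dioxygenase, fell from 148 to 322 rpm to 15.5 to 79.1 rpm (-2.88 ± 0.31, adjusted p = 3e-05). Ribosomal proteins had 7 higher and 13 lower of 264 (2.65% and 4.92%, median -0.30).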

How the data were processed

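Leaf RNA of 11 plants was sequenced with 1 library per plant, as 100 bp single-end reads after TruSeq library preparation. The authors matched the reads to a reduced set of *Arabidopsis thaliana* coding sequences (TAIR10) with BLAT in protein space and kept the best hit. CASAVA and edgeR stand in the submitters' processing notes, and for these tools, as for BLAT, the version was not given in the sources used here. Deposited counts are unnormalized reads per gene model, and the RPM values beside them were made by the authors by scaling the counts of each library to the same total. Divergence between *Moricandia* and Arabidopsis, and reads shared by related genes, can move a count from 1 gene model to another. The authors' own fold changes and p-values, in a separate deposited table, were not used, nor was 1 entry of a table of totals that matched no plant. Sequences and genome coordinates were not analysed here.

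Counts were fitted with edgeR 4.0.16 (R 4.3.3): gene models passing filterByExpr with a count minimum of 10, TMM scaling, and a quasi-likelihood F test with 1 coefficient per species over all 11 libraries (8 residual degrees of freedom, biological coefficient of variation 0.259), two-sided, with Benjamini-Hochberg adjustment over 15570 transcripts and a threshold of 0.01. Plants are the replicates, so p-values measure the spread between plants of 1 growth experiment. Counts were also simulated from the C3 means and the fitted spread, with no other difference between the species. Of 50 transcripts per size changed alike in both intermediates, 0% at 1.5-fold and 12% at 2-fold were called in both. At 4-fold and 8-fold 62% and 90% were. Among the unchanged transcripts 1 was called in the mean and 0 in both. How far this holds for the real plants was not tested. Read ratios carry exact 95% intervals, and a group at 0 was set to a floor of 3 reads.

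The comparison, the 24 gene lists (555 entries) and the 31 description groups were chosen with earlier results of these data known. Named are the 12 highest and 12 lowest transcripts with at least 10 rpm and no overlap, the 6 most abundant that moved each way, up to 5 per list with up to 3 abundant members (500 rpm or more) that did not pass, up to 3 per description group, up to 8 near-absent ones each way and the 20 most abundant. From these the text describes 111 transcripts, and any choice among them was made after their values were seen. Alternatives were other scalings and filters, DESeq2 1.42.0, voom in limma 3.58.1, 1 group of 7 intermediate plants, a plant number block, other thresholds, closest pairs of plants summed, and each plant left out. Sums of 2 gene models that the deposited descriptions give as each other's best match in Arabidopsis were added after the data were seen. Figures were drawn with matplotlib 3.10.9.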

Additional observations from a re-analysis of the deposited data

Results flagged for a closer look

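Among the described transcripts, 18 of the 222 groups of 4 plants examined held a plant far from the other 3 by Dixon's criterion, which chance alone meets in about 1 group in 20. In *M. moricandioides* plant 6 was the high plant for AT1G15150 (183 rpm), COPT2 (19.3 rpm) and DPE1 (35.1 rpm), and plant 8 for SBE2.2 (204 rpm) and AT4G12710 (0.163 rpm). Plant 8 was the low one for AT4G26555 (29.5 rpm), and plant 15 for COR47 (120 rpm) and CYP710A2 (6.05 rpm). Plant 12 was the high plant for ZIP9 (0.145 rpm) and PCK2 (0.0724 rpm), each from 2 reads or fewer. In *M. arvensis* plant 9 stood high for PORC (559 rpm), RBCS1A (10465 rpm) and RPI (279 rpm), and plant 12 low for HEMC (132 rpm) and AT5G54770 (11460 rpm). The 0.0862 rpm of plant 15 for CKI1, AT4G26555 and ARAD2 are 1 read each.

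The intermediates differed from each other, by edgeR's test of that difference, in the following described transcripts, given as the log2 fold change of *M. arvensis* over *M. suffruticosa*. *M. arvensis* was higher for MYB3 (1.39), ZIP10 (4.24), ZIP9 (2.72), NAC1 (1.94), NAP (2.30), ABI1 (1.13), ABF3 (1.55) and the cysteine proteinase AT3G45310 (1.26). It was lower for AT4G26555 (-7.36), the guard cell marker GC1 (-2.50), XTH4 (-2.46), GER1 (-1.66), CSD2 (-1.36), CYP71A28 (-1.34), pNAD-MDH (-0.96), GLK1 (-0.95) and UCP1 (-0.92). All of these except GLK1 and GC1 moved in both intermediates against C3, so for them a common direction went with unequal sizes.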

How the results depend on the processing

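Against 955 higher and 836 lower transcripts in both intermediates, and 2277 and 2350 in the C3–C4 mean, the counts stayed within 1.5 times under RLE size factors (898 and 867 in both), library totals (996 and 613), no filter beyond 1 read (936 and 804), a mean of at least 10 rpm in 1 species (662 and 630) and voom (901 and 858), and the same holds for the mean. DESeq2 called 1279 higher and 1274 lower in both. The 7 intermediate plants as 1 group gave 1359 and 1194 in the mean. At an adjusted p of 0.05 there were 3582 higher in the mean and 1723 and 1556 in both, and with at least 2-fold 1374 and 1417 in the mean. With the closest pairs of plants summed to 1 library each, 1510 were higher in the mean and 500 and 372 in both. This alternative has fewer libraries, and otherwise the cause of these shifts was not tested. Leaving out 1 plant gave 629 to 1003 higher and 441 to 992 lower in both, and 1625 to 2348 and 1865 to 2667 in the mean. The lowest counts in both came without *M. suffruticosa* plants 6 and 7 and the highest without *M. arvensis* plant 9, and 1069 to 1685 of the 1791 were called again.

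Plant numbers shared between species did not pair the plants, since deviations from the species means correlated at 0.00974, 0.0214, 0.00831 and 0.0298. A fit with the plant number as a block leaves 2 residual degrees of freedom and called 889 higher and 958 lower in the mean and 51 and 36 in both. Summing gene models that are each other's closest match, an alternative chosen after the data were seen, gave 805 and 699 of 13398 in both. It kept 1524 of the 1791 calls and turned the sign of HSP60 (0.41), SHM2 (0.50) and OVA2 (0.53) and left triose phosphate isomerase AT2G21170 level (0.00), and these then did not move in both. Of the 111 transcripts described, the plant number block ended the common call of 67, the close pairs summed that of 31, a requirement of no called difference between the intermediates that of 15, at least 2-fold that of 10, library totals that of 9 and RLE size factors that of 1, PRR3. In simulated counts 12% of 2-fold changes and 0% of 1.5-fold changes were called in both, so most changes of this size would be missed.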
